A study of Mus musculus with 17 samples.

Results

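The AP-1 family was represented by 7 genes, the Fos genes Fos, Fosb, Fosl1 and Fosl2 and the Jun genes Jun, Junb and Jund, among 55471 genes in the count table. The members were taken by name, through the Ensembl identifier of each gene, by a rule that uses no measured value. The family itself was picked with earlier results of these data known. Total RNA from the hippocampus of individual male C57BL/6 mice (C57BL/6J in the methods) aged 3 to 6 months was sequenced, with 17 libraries in 6 groups. CBP-ifKO mice carried floxed Crebbp alleles and the tamoxifen-dependent recombinase creERT2 under a Camk2a promoter, which restricts the loss of the lysine acetyltransferase CBP to excitatory neurons of the adult forebrain. Control mice were littermates, described in the methods as lacking creERT2. Mice of both genotypes received tamoxifen in 5 administrations. Sal mice were never kindled and received saline. PTZ0 and PTZ45 mice were kindled, that is, injected on alternate days with 45 mg/kg of the convulsant pentylenetetrazol (PTZ), and 1 week later received saline (PTZ0) or a last dose of 45 mg/kg PTZ (PTZ45). Hippocampi were collected 45 min after the last injection. Control PTZ45 had 2 libraries and each of the other groups had 3. The comparisons asked how the last PTZ dose changed AP-1 mRNAs in each genotype, whether kindling alone left a trace in them, and whether their levels differed between genotypes.

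AP-1 is a dimeric transcription factor of the basic leucine zipper (bZIP) class. Jun proteins pair with each other or with Fos proteins, whereas Fos proteins need a Jun partner to bind DNA. Fos, Fosb and Junb are classic immediate early genes, which neurons transcribe within minutes of strong activity from existing factors such as phosphorylated CREB, with CBP as a coactivator. Jund, in contrast, is known for a steady level in many tissues.

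In the annotation of the mouse build GRCm38, Fos lies on chr12:85473890-85477273 (plus strand), Fosb on chr7:19302696-19310051 (minus), Fosl1 on chr19:5447547-5455946 (plus) and Fosl2 on chr5:32135801-32157842 (plus). Jun lies on chr4:95049034-95052222 (minus), Junb on chr8:84974484-84978718 (minus) and Jund on chr8:70698949-70700616 (plus). Jun and Jund are single-exon genes. All 7 are protein coding. Whether the counting used strand is not given in the sources used here, so reads from Jun and the antisense gene Junos, from Jund and the antisense gene Gm11175, from Junb and Prdx2, and from Fosl1 and Ccdc85b cannot be told apart where they overlap. Promoter sequences from RefSeq (GRCm38.p6) were matched for 6 of the 7 members, all but Fosl1. In the 250 bases upstream of the start, the half-site TGACG of the CRE, the element that CREB binds, was searched on both strands and was found in 3 of the 6, namely Fos, Fosb and Junb, against 17.8% of 32851 promoters. The full palindrome TGACGTCA, which contains that half-site, was found in 0 of the 6 (1.55% of promoters), as were the AP-1 site TGANTCA (6.75%) and the CArG box bound by SRF (1.47%). The variant TGACATCA was found in Jun alone (2.93% of promoters). For Jund and Fosl2 the RefSeq start lay 1210 and 671 bases from the start in GENCODE M21, the annotation used here for positions. Their windows therefore cover another part of the locus. The 150 bases before the start are shown for the 4 members with a match, namely Fos, Fosb, Junb and Jun. The start here is that of RefSeq or of GENCODE M21, whichever lies further upstream (6 bases apart in Fosb and 30 in Junb). Whether a match goes with the response to PTZ was not tested. Capitals mark TGACG in the first 3 and TGACATCA in Jun, and each sequence runs 5′ to 3′ on the strand of the gene. Counted back from the end of the printed window, the capitals begin at bases 129 and 66 in Fos, 54 in Fosb, 106 in Junb and 45 in Jun. A match describes letters and was not measured as binding. Sequence more than 250 bases upstream was not searched, so a gene without a match may still have the site there.
Fos, chr12:85473740-85473889, plus strand: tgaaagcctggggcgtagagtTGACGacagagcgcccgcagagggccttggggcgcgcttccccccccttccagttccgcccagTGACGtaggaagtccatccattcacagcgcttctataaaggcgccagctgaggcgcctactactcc
Fosb, chr7:19310052-19310201, minus strand: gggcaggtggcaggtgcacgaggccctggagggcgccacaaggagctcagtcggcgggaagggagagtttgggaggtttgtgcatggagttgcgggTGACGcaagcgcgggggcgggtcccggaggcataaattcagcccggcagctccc
Junb, chr8:84978749-84978898, minus strand: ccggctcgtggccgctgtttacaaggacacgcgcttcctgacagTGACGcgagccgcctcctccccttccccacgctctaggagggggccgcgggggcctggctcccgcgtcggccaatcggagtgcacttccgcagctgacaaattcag
Jun, chr4:95052223-95052372, minus strand: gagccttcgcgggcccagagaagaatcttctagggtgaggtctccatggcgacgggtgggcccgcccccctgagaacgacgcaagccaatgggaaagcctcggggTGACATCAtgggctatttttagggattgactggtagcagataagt

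Library totals ran from 5831992 to 18735643 counts. Crebbp, whose floxed exon is lost in recombined cells while the rest of the transcript can still be counted, was at 1824 to 2429 normalized counts in the 8 control libraries and at 1061 to 1337 in the 9 CBP-ifKO libraries. Esr1, which shares sequence with creERT2, was at 41.0 to 77.8 and 703 to 941 respectively. The sample descriptions name Camk2a_creERT2 for control libraries as well, which the low Esr1 level of all 8 goes against, and no library went against its genotype label. The labels place Control Sal and Control PTZ0 on sequencing lane 3, Control PTZ45 and CBP-ifKO Sal on lane 4, and CBP-ifKO PTZ0 and PTZ45 on lane 5, so that lane and genotype cannot be told apart within any treatment. In 5 libraries, 1 in each group but Control PTZ45, the summed level of 4 choroid plexus markers was 10686 to 43805 normalized counts, against 411 to 1096 in the other 12. The markers of the neuronal and glial types expected in hippocampus were detected in every group. Results that changed when those 5 libraries were left out are given below with both values.

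Before any last PTZ dose, the summed mRNAs of the Jun genes exceeded those of the Fos genes in every library. This did not hold gene by gene, as Junb and Fosl2 overlapped in Control PTZ0 and CBP-ifKO PTZ0. To compare genes, normalized counts, which are counts divided by the size factor of each library, were further divided by exon length in kilobases (kb). In Control Sal mice Jun was the most abundant member, at 184 ± 19.6 normalized counts per kb (SD, n = 3), above Junb (105 ± 9.05) and Jund (102 ± 5.31), whose ranges overlapped. Fosl2 followed at 57.1 ± 6.99, then Fos at 16.8 ± 8.39 and Fosb at 4.71 ± 2.10. Jun also led, without overlap with the next member, in Control PTZ0, CBP-ifKO Sal and CBP-ifKO PTZ0. The order below Jun depends on the length used. With the longest annotated transcript as length, Junb (134 ± 11.5) was above Jund in Control Sal without overlap. By that length Fosl2 came next after Jun in CBP-ifKO PTZ0, with overlap with Jund. Fosl1 was close to absent, with 0 to 4 counts in each library and 14 counts over all 17. It had no count in 8 libraries, all among the 12 without a last PTZ dose, where a count of 0 allows up to 3 counts. No change of Fosl1 could be measured at this depth, and no fold change is given for it.

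**Figure D1:**
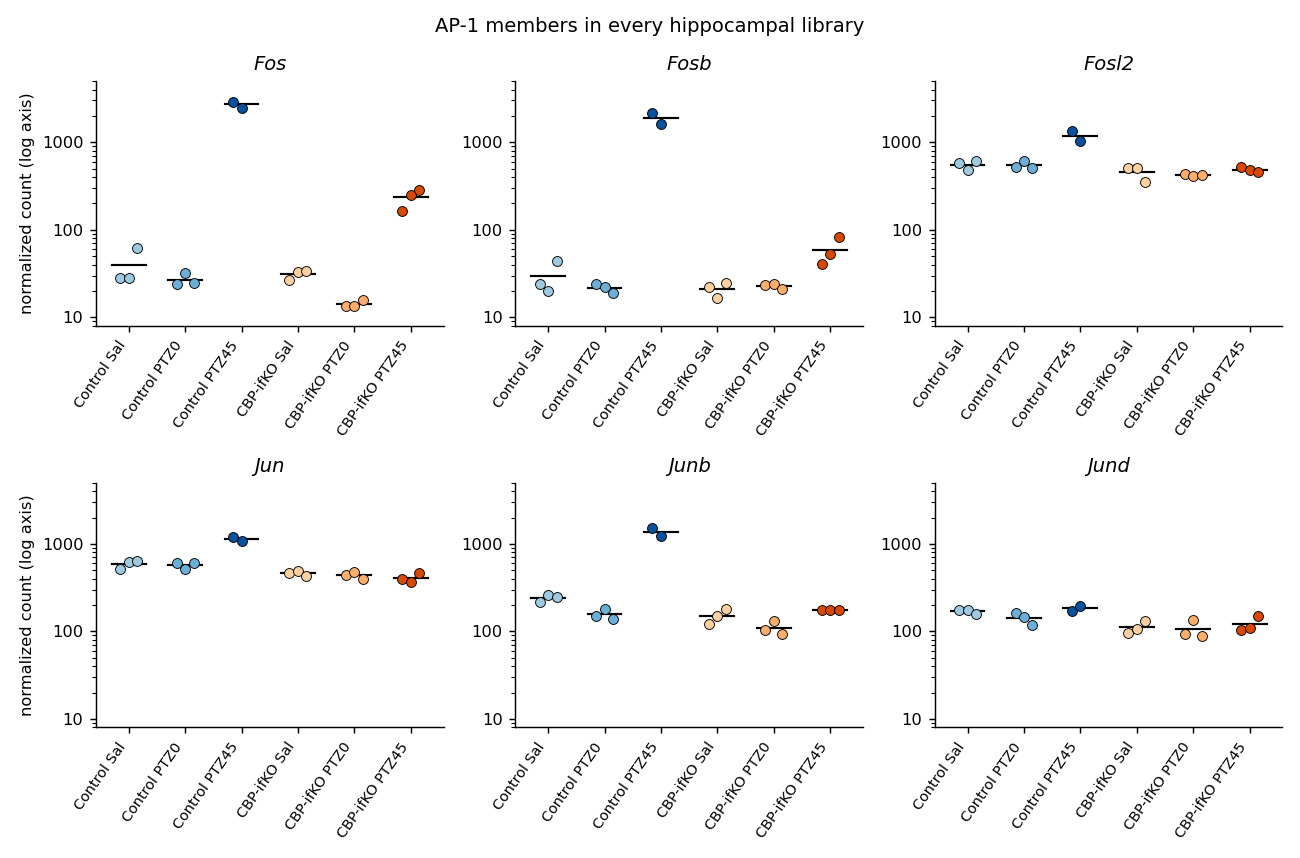
Normalized counts (log axis) of 6 AP-1 members in each of the 17 libraries, by group. Points are libraries and lines are group means. Fos, Fosb and Junb in the 2 Control PTZ45 libraries lay above every other library, while in CBP-ifKO PTZ45 libraries Fos lay between 163 and 288 and Junb between 175 and 178.

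In control mice, the last PTZ dose raised 5 of the 7 members. Fos, the prototype immediate early gene, was at 28.1, 28.3 and 62.4 normalized counts in Control Sal and at 2915 and 2483 in Control PTZ45. This is 67.8-fold, a log2 fold change of 6.08 ± 0.48 (SE; DESeq2 Wald test, adjusted p = 4.21e-34). Fosb, which also encodes the stable splice form deltaFosB that these gene counts do not separate, was at 24.2, 19.7 and 44.3 in Control Sal and at 2154 and 1633 in Control PTZ45, or 63.9-fold (log2 6.00 ± 0.44, adjusted p = 4.64e-40). Replicate 3 of Control Sal was the highest of its group for both genes, and still far below the PTZ45 libraries. Ranked by rise over 13111 genes whose mean normalized count was 50 or more, Fos was at place 3 and Fosb at place 4. With Control Sal means of 39.6 and 29.4, both reached that mean only through the PTZ45 libraries, so these ranks are descriptions. Across all genes tested, 1.17% were called, that is, had an adjusted p under 0.05, and 0.939% were called higher.

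Junb, a Jun protein with weak transactivation of its own, rose less than Fos in log2 terms. It was at 220, 261 and 245 in Control Sal and at 1528 and 1231 in Control PTZ45, a 5.72-fold difference (log2 2.52 ± 0.13, adjusted p = 1.46e-77). Fosl2 (Fra-2) was at 576, 476 and 606 against 1341 and 1042, or 2.15-fold (log2 1.10 ± 0.13, adjusted p = 5.62e-14). Jun, the founding Jun gene, was at 517, 617 and 631 against 1193 and 1083, or 1.94-fold (log2 0.95 ± 0.12, adjusted p = 2.61e-13). For all 5 genes both PTZ45 libraries were above all Sal libraries, as they were for 16.7% of all genes. Jund was at 175, 176 and 160 in Control Sal and at 172 and 197 in Control PTZ45, so the groups overlapped, and its log2 change of 0.11 had a 95% interval from -0.25 to 0.47 (adjusted p = 0.981). Control PTZ45 was on lane 4 and both other control groups on lane 3, so lane and last dose cannot be told apart in the control comparisons. The 5 calls were kept in each of 12 alternatives, edgeR and the omission of any library among them. The omission of choroid-rich libraries is here the same fit as that of Control Sal replicate 2.

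Measured from kindled mice that had received saline, the same 5 members rose in controls. PTZ45 against PTZ0 gave log2 changes of 6.68 ± 0.19 for Fos (102-fold), 6.45 ± 0.21 for Fosb (87.3-fold), 3.15 ± 0.13 for Junb (8.86-fold), 1.12 ± 0.12 for Fosl2 and 0.98 ± 0.10 for Jun. All 5 were called (DESeq2, highest adjusted p 4.39e-18 for Fosl2, with 1.25% of all genes called and 1.18% called higher). These values share the Control PTZ45 libraries with those above. Fos and Fosb had the largest and the second largest rise of 13025 ranked genes, a description, as both entered this ranking too only through the PTZ45 libraries. Jund was not called (log2 0.36, 95% interval -0.03 to 0.75, adjusted p = 0.664), although 172 and 197 lay above the 120 to 163 of Control PTZ0, as 17.6% of all genes did.

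In CBP-ifKO mice, Fos and Fosb rose, Fosb with a call that few alternatives kept. Fos was at 26.9, 33.2 and 34.0 normalized counts in CBP-ifKO Sal and at 163, 250 and 288 in CBP-ifKO PTZ45, 7.52-fold (log2 2.91 ± 0.26, DESeq2 adjusted p = 1.33e-25). All 3 PTZ45 libraries were above all Sal libraries, and all 3 were below both Control PTZ45 libraries. Fosb was at 22.4, 16.6 and 24.4 against 41.0, 53.0 and 82.5, or 2.68-fold (log2 1.42 ± 0.37, adjusted p = 0.0413). All 3 PTZ45 libraries were above all Sal libraries here too, as they were for 6.69% of all genes, but the call was lost in 8 of 12 alternatives that gave an adjusted p, edgeR included (0.188) and the omission of the choroid-rich libraries (0.628), with adjusted p from 0.00728 to 0.628. The log2 change itself stayed between 1.11 and 1.63 over the 13 alternatives, and was 1.54 without the choroid-rich libraries. It was lost without replicate 1, 2 or 3 of CBP-ifKO Sal (0.129, 0.555 and 0.163) and without replicate 1 or 2 of CBP-ifKO PTZ45 (0.108 and 0.194), and Fosb received no adjusted p without replicate 3 of CBP-ifKO PTZ45. In all, 2 of 7 members were called, against 0.294% of all genes tested, and 0.086% called higher. CBP-ifKO PTZ45 was on lane 5 and CBP-ifKO Sal on lane 4, so lane and last dose cannot be told apart between these groups.

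The other members were not called in CBP-ifKO mice. Junb was at 122, 149 and 178 in CBP-ifKO Sal and at 175, 177 and 178 in CBP-ifKO PTZ45 (log2 0.24, 95% interval -0.13 to 0.60, adjusted p = 1.0). The 3 PTZ45 values were nearly equal and lay within the upper end of the Sal range. Fosl2 was at 506, 508 and 348 against 523, 477 and 457 (log2 0.10, interval -0.18 to 0.39). Jun was at 468, 486 and 426 against 400, 365 and 466 (log2 -0.16, interval -0.42 to 0.09). Jund was at 95.4, 108 and 132 against 105, 110 and 149 (log2 0.11, interval -0.33 to 0.54). These groups overlapped for all 4 genes, and the intervals of Junb, Fosl2 and Jun lie below the rise measured in controls.

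The comparison of CBP-ifKO PTZ45 with CBP-ifKO PTZ0 was made within lane 5. Fos was at 13.4, 13.4 and 15.8 in CBP-ifKO PTZ0 and rose 16.3-fold (log2 4.03 ± 0.30, DESeq2 adjusted p = 1.03e-36), the largest rise of 12931 ranked genes. That rank is a description, as Fos entered this ranking only through the CBP-ifKO PTZ45 libraries. Fos was the 1 member called, with 0.0872% of all genes called and 0.0607% called higher. Fosb, at 23.1, 23.9 and 21.3 in PTZ0, had a log2 change of 1.37 ± 0.35 (adjusted p = 0.0947), and Junb, at 105, 131 and 94.6 in PTZ0, of 0.68 ± 0.18 (adjusted p = 0.151). For both, as for Fosl2 (log2 0.21 ± 0.11, adjusted p = 1.0), the PTZ45 libraries were above all PTZ0 libraries, which held for 4.67% of all genes. With a correction for GC content Fosb and Junb were called (adjusted p = 0.0497 and 0.00312), and likewise in a fit of all 17 libraries (0.0496 and 0.0386). Over their alternatives, adjusted p ran from 0.0496 to 1.0 for Fosb and from 0.00312 to 1.0 for Junb.

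**Figure D2:**
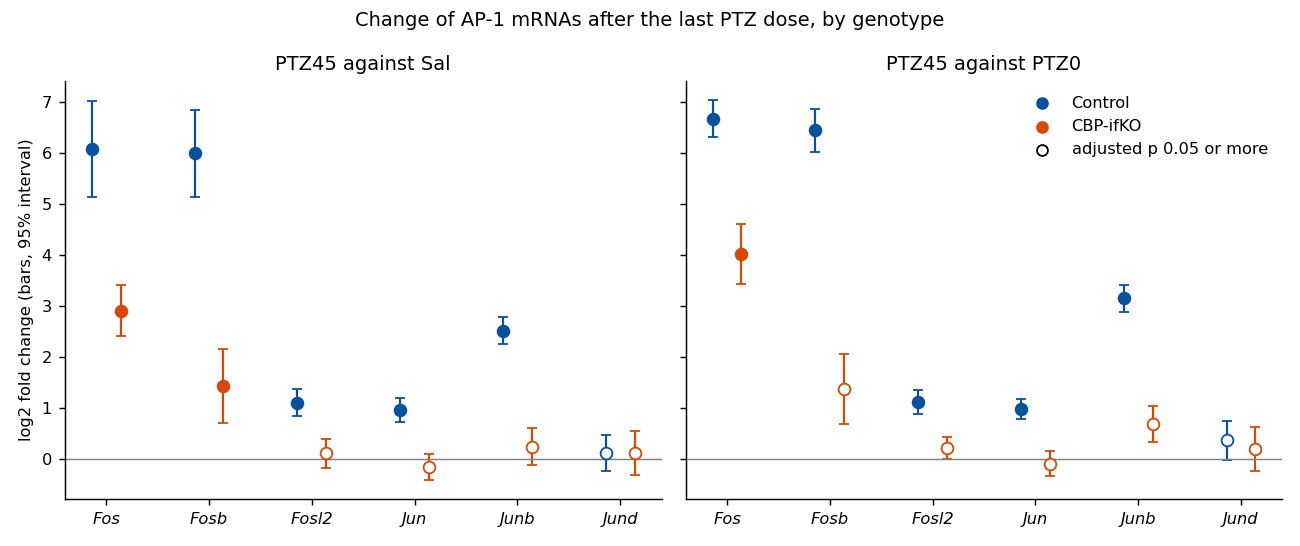
Log2 fold change of 6 AP-1 members after the last PTZ dose, against Sal (left) and PTZ0 (right), in Control and CBP-ifKO mice. Bars are 95% intervals, and open symbols have an adjusted p of 0.05 or more. Control symbols lie above CBP-ifKO symbols for Fos, Fosb, Fosl2, Jun and Junb, whereas the intervals of Jund overlap.

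The difference between the genotypes was tested as an interaction, the log2 change in CBP-ifKO minus that in controls. Over Sal, 5 of 7 members had a smaller rise in CBP-ifKO mice, against 0.329% of all genes tested. The interaction was -4.57 ± 0.56 for Fosb (DESeq2 adjusted p = 3.25e-13), -3.18 ± 0.52 for Fos (7.50e-07), -2.28 ± 0.21 for Junb (4.86e-23), -1.12 ± 0.17 for Jun (3.90e-08) and -0.9997 ± 0.21 for Fosl2 (0.000781). The first 4 were called in 18 of 18 alternatives. Fosl2 was called in 15 of 18 and was lost with edgeR (adjusted p = 0.0728), without Control PTZ45 replicate 1 (0.294) and without the 5 choroid-rich libraries (log2 -0.79, 0.359). Jund had an interaction of -0.01, with a 95% interval from -0.54 to 0.52. Sal and PTZ45 were on lanes 3 and 4 in controls and on lanes 4 and 5 in CBP-ifKO mice. Lane and last dose therefore cannot be told apart in this test.

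Over PTZ0, the interaction was -5.08 ± 0.44 for Fosb, -2.65 ± 0.34 for Fos, -2.46 ± 0.21 for Junb, -1.08 ± 0.16 for Jun and -0.92 ± 0.16 for Fosl2, all called (DESeq2, highest adjusted p 7.81e-06 for Fosl2, with 0.423% of all genes called) and kept in 18 of 18 alternatives. Fosb thus had the most negative interaction of the 7 members over both baselines, and the second most negative of 12992 and of 12982 ranked genes. The ranks among all ranked genes are descriptions, as Fosb entered both rankings only through the Control PTZ45 libraries. No gene was called with a larger rise in CBP-ifKO mice in either test. Over PTZ0 both CBP-ifKO groups were on lane 5, while Control PTZ0 was on lane 3 and Control PTZ45 on lane 4. Lane and last dose cannot be told apart in the control part of that test. Kindled here means the injections received. Seizure scores of these mice were not analysed here, and the genotypes may differ in them, so their part in the difference was not tested.

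As normalized counts, the rise over Sal in each CBP-ifKO PTZ45 library can be set against the mean rise in controls. For Fos the 3 libraries reached 4.95%, 8.22% and 9.64% of the control rise (7.60 ± 2.41%, SD, n = 3). For Fosb they reached 1.07%, 1.71% and 3.29%, so that the ranges of Fos and Fosb did not overlap. Junb reached 2.18% to 2.49%, Fosl2 0.518% to 10.7%, and Jun -17.3% to 1.07%, where a negative value means a level below that of CBP-ifKO Sal. These ranges cover the CBP-ifKO PTZ45 libraries alone: with any 1 library of the 4 groups left out, the mean ran from 6.58% to 8.93% for Fos, 1.39% to 2.50% for Fosb, 1.12% to 3.60% for Junb, -3.38% to 9.17% for Fosl2 and -14.1% to -4.95% for Jun. Measured from PTZ0, the means were 8.21% for Fos, 1.93% for Fosb, 5.43% for Junb, 10.01% for Fosl2 and -5.06% for Jun. These shares are descriptions and rest on 2 Control PTZ45 libraries.

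The make-up of the AP-1 mRNA pool shifted towards Fos genes in controls, while both families rose. Per kb, the summed Fos genes were at 78.8 ± 15.9 normalized counts in Control Sal (SD, n = 3) and 1574 ± 211 in Control PTZ45 (n = 2). The summed Jun genes were at 392 ± 26.3 and 1067 ± 105. Per kb, the summed Fos genes over the summed Jun genes gave a ratio of 0.202 ± 0.042 in Control Sal and 0.214 ± 0.026 in Control PTZ0 (SD, n = 3 each), and of 1.51 and 1.44 in the 2 Control PTZ45 libraries. In CBP-ifKO mice the ratio was 0.233 ± 0.041 in Sal, 0.218 ± 0.033 in PTZ0 and 0.575 ± 0.074 in PTZ45. The 3 CBP-ifKO PTZ45 libraries, at 0.495 to 0.641, lay above all 12 libraries without a last dose, which did not exceed 0.267, and below both Control PTZ45 libraries. Fos took 3.53% of the pool in Control Sal and 43.5% in Control PTZ45, and 3.91% in CBP-ifKO Sal and 22.5% in CBP-ifKO PTZ45. The share of Junb in controls was 22.3% in Sal, 16.7% in PTZ0 and 22.7% in PTZ45, while from Sal to PTZ45 the share of Jun went from 39.1% to 13.6% and that of Jund from 21.8% to 4.24%.

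**Figure D3:**
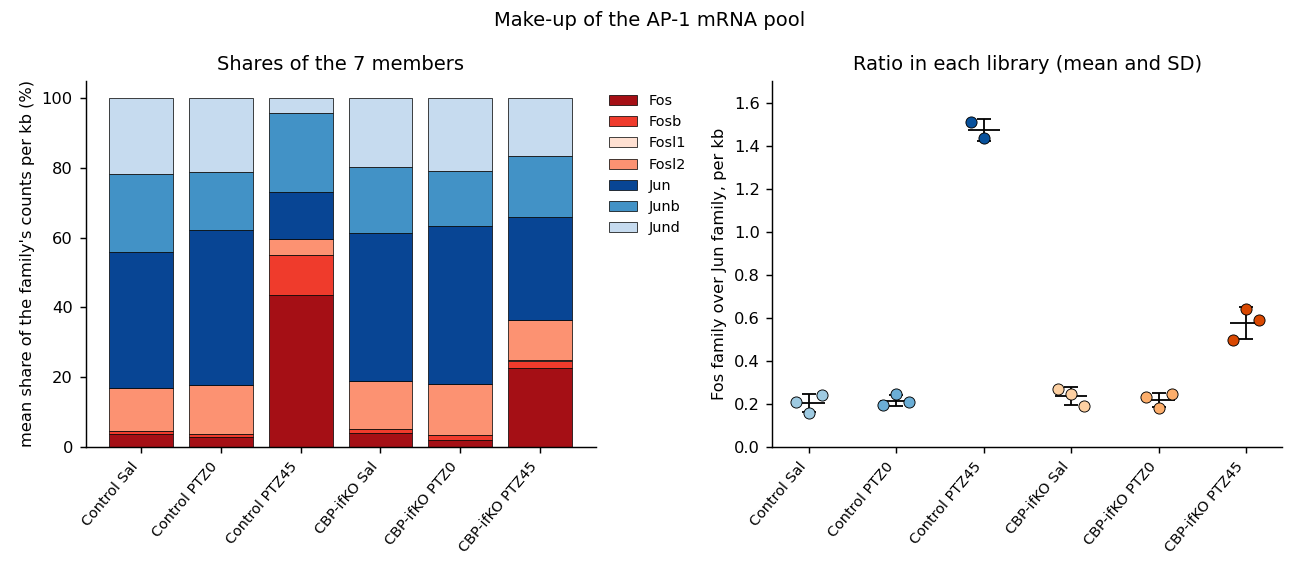
Left, mean share of each AP-1 member in the normalized counts per kb of the family, by group. Right, ratio of summed Fos genes to summed Jun genes per kb in each library, with group mean and SD. The ratio was 1.44 and 1.51 in Control PTZ45, 0.495 to 0.641 in CBP-ifKO PTZ45 and at most 0.267 elsewhere.

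The order of the members changed with this shift. In Control PTZ45 Fos led at 1147 ± 130 normalized counts per kb (SD, n = 2), then Junb at 600 ± 91.3, and both were above the next member in both libraries without overlap. Jun (357 ± 24.3) and Fosb (303 ± 59.0) overlapped, as did Fosl2 (123 ± 21.8) and Jund (111 ± 10.3). In CBP-ifKO PTZ45 Jun still led at 129 ± 16.1 (n = 3), with Fos at 99.3 ± 27.2. Their ranges overlapped, although Jun was the higher in each of the 3 libraries. Junb (76.7 ± 0.778), Jund (72.7 ± 14.3), Fosl2 (50.2 ± 3.45) and Fosb (9.42 ± 3.42) followed. This order depends on the length used. With the longest annotated transcript in place of all merged exons, a setting added after seeing the data, Fosb (501 ± 97.5) was above Jun and Fosl2 (182 ± 32.3) above Jund in both Control PTZ45 libraries without overlap, while in CBP-ifKO PTZ45 Jun was above Fos in 2 of 3 libraries.

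Kindling without a last dose left no member called. PTZ0 against Sal called 0 of 7 members in controls, where 0.00843% of all genes were called, and 0 of 7 in CBP-ifKO mice, where 0.0112% were (DESeq2; edgeR also called 0). At an unadjusted p under 0.05 there was 1 member in controls, Junb, beside 83 higher and 124 lower among all 35602 genes tested. It was at 150, 182 and 138 in PTZ0 and at 220, 261 and 245 in Sal (log2 -0.63 ± 0.15, adjusted p = 0.226, and 0.0615 to 1.0 over the alternatives). All 3 PTZ0 libraries were below all Sal libraries, as they were for 3.78% of all genes. Both groups were on lane 3. In CBP-ifKO mice there were 2, Junb (log2 -0.44 ± 0.21) and Fos (log2 -1.13 ± 0.44), both with an adjusted p of 1.0, beside 21 higher and 99 lower among all 35705. Fos was at 13.4, 13.4 and 15.8 in PTZ0 and at 26.9 to 34.0 in Sal, below without overlap as were 2.97% of all genes. The Fos difference rests on 11 to 46 counts per library. CBP-ifKO PTZ0 was on lane 5 and CBP-ifKO Sal on lane 4, so lane and kindling cannot be told apart in CBP-ifKO mice. The interaction of genotype with PTZ0 over Sal called 0 members and 0% of all genes, no member had an unadjusted p under 0.05, and edgeR called 0 members.

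Without a last PTZ dose, 4 members were lower in CBP-ifKO than in control mice. The 6 Sal and PTZ0 libraries of each genotype were compared with treatment as a term. Jun was at 517 to 631 normalized counts in controls (median 605) and at 401 to 486 in CBP-ifKO mice (median 454), with all 6 CBP-ifKO libraries below all 6 control libraries, as was the case for 4.37% of all genes. Its log2 difference was -0.38 ± 0.07 (DESeq2 adjusted p = 5.17e-06). Junb was at 138 to 261 (median 201) against 94.6 to 178 (median 126), with a log2 difference of -0.60 ± 0.12 (adjusted p = 1.72e-05). Jund was at 120 to 176 (median 162) against 88.3 to 137 (median 102), or -0.52 ± 0.13 (adjusted p = 0.00118). Fosl2 was at 476 to 611 (median 550) against 348 to 508 (median 428), or -0.34 ± 0.09 (adjusted p = 0.00365). The last 3 overlapped between genotypes.

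Fos (log2 -0.59 ± 0.25, adjusted p = 0.10) and Fosb (-0.20 ± 0.25, adjusted p = 0.680) were not called in this test. Fos, at 13.4 to 62.4 over the 12 libraries, was called in 2 of 16 alternatives, without Control Sal replicate 1 (0.0400) or replicate 2 (0.0497). Of all genes tested, 14.6% were called and 9.04% were called lower, so 4 of 7 members stand beside a broad difference between genotypes. The calls of Jun and Fosl2 were kept in 19 of 19 alternatives. Those of Junb and Jund were kept in 18 of 19 and lost without the choroid-rich libraries (log2 -0.39, adjusted p = 0.0786, and log2 -0.37, adjusted p = 0.192), where 4 against 4 libraries remained. All genotype values cross lanes, and lane and genotype cannot be told apart in them.

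**Figure D4:**
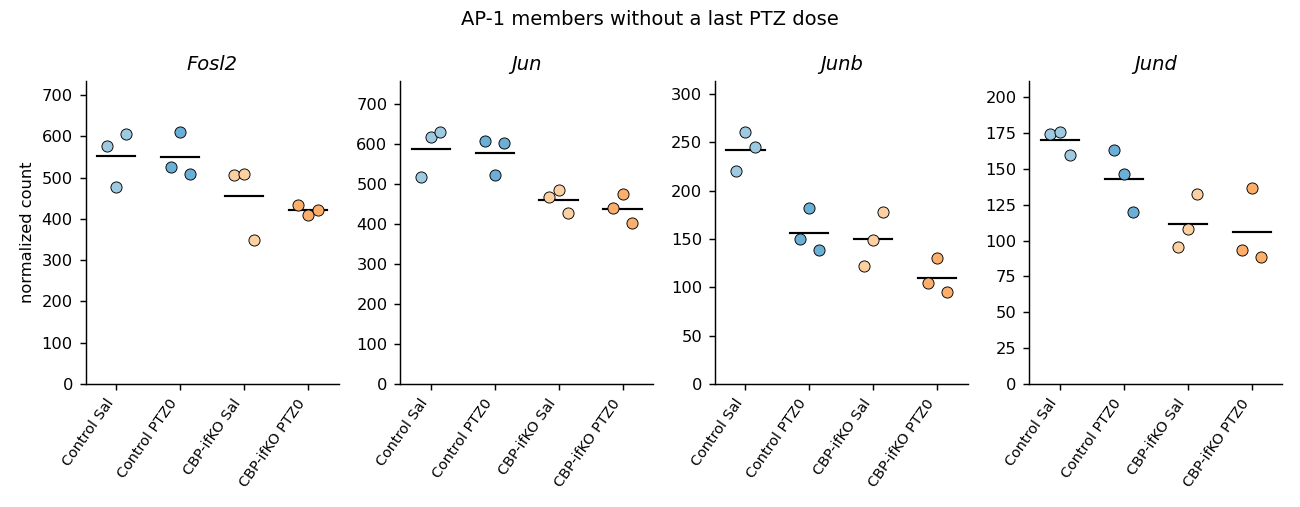
Normalized counts of Fosl2, Jun, Junb and Jund in the 12 libraries without a last PTZ dose (linear axis from 0). Points are libraries and lines are group means. All 6 CBP-ifKO libraries lay below all 6 control libraries for Jun, while the genotypes overlapped for the other 3 genes.

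Markers of hippocampal cell types moved with genotype as well. In the same 12 libraries, 4 of 4 CA pyramidal cell markers (Wfs1, Fibcd1, Grik4 and Spink8) were called lower in CBP-ifKO mice, and their summed level was 2890 to 3197 normalized counts in controls against 1881 to 2290. The dentate granule cell markers C1ql2 and Pdyn were lower and Prox1 was higher, while the summed dentate level overlapped, at 2171 to 3070 against 2634 to 2945. Neurod2 was higher, with 0 of the other 3 excitatory neuron markers called. Lower levels were also called for Gad1 and Sst of the interneuron markers, Mbp and Mag of the oligodendrocyte markers and Ly6c1 of the endothelial markers, and no astrocyte, microglia or choroid plexus marker was called. In bulk tissue, fewer cells of a type and less RNA per cell cannot be told apart, and the part of cell composition in the lower AP-1 levels was not tested.

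Within single treatments fewer genotype calls were made. In Sal mice Junb was the 1 member called (log2 -0.69 ± 0.18, DESeq2 adjusted p = 0.00667), with 2.04% of all genes called and 1.77% called lower. That call was lost in 6 of 13 alternatives, including edgeR (0.0625), the omission of Control Sal replicate 2 or 3 or of CBP-ifKO Sal replicate 1 (0.178, 0.116 and 0.185) and of the choroid-rich libraries (0.957), with adjusted p from 0.000517 to 0.957 and log2 differences from -0.87 to -0.49. Jun (log2 -0.36, adjusted p = 0.0871) and Jund (log2 -0.60, adjusted p = 0.0620) were below controls in all 3 CBP-ifKO Sal libraries without being called, as 11.1% of all genes lay below without overlap. In PTZ0 mice Fosl2 (log2 -0.38 ± 0.10, adjusted p = 0.00876) and Jun (log2 -0.40 ± 0.11, adjusted p = 0.00568) were called, with 6.68% of all genes called and 5.25% called lower. Fosl2, Jun, Junb and Fos lay below controls without overlap, as did 15.2% of all genes. Over their 13 alternatives adjusted p ran from 0.0122 to 0.752 for Fosl2 and from 0.00328 to 0.243 for Jun. Fosl2 was lost without Control PTZ0 replicate 1 or 2 or CBP-ifKO PTZ0 replicate 3 (0.0582, 0.232 and 0.0854), and Jun without Control PTZ0 replicate 1 or 3 or CBP-ifKO PTZ0 replicate 3 (0.143, 0.118 and 0.138). Both were lost without the choroid-rich libraries (0.752 and 0.243). The log2 differences stayed between -0.43 and -0.29 for Fosl2 and between -0.47 and -0.33 for Jun.

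After the last PTZ dose, 5 members were lower in CBP-ifKO than in control mice. CBP-ifKO PTZ45 was below Control PTZ45 by a log2 difference of -5.01 ± 0.40 for Fosb (32.2-fold), -3.53 ± 0.30 for Fos (11.5-fold), -2.97 ± 0.14 for Junb (7.81-fold), -1.47 ± 0.13 for Jun (2.78-fold) and -1.29 ± 0.13 for Fosl2 (2.45-fold). All 5 were called (DESeq2, highest adjusted p 3.94e-20 for Fosl2), against 3.07% of all genes called and 2.82% called lower, and were kept in 12 of 12 alternatives. Fosb had the largest fall of 12902 ranked genes. Jund was at 105, 110 and 149 against 172 and 197, below without overlap as were 18.3% of all genes, with a log2 difference of -0.61 ± 0.22 (adjusted p = 0.130). Control PTZ45 and CBP-ifKO Sal shared lane 4, and within this lane Control PTZ45 was higher by 6.46 ± 0.19 for Fos, 6.41 ± 0.22 for Fosb, 3.21 ± 0.17 for Junb, 1.40 ± 0.17 for Fosl2 and 1.32 ± 0.13 for Jun in log2 units. All 5 were called, with 3.41% of all genes called and 3.05% called higher. Jund was above without overlap, as were 19.9% of all genes, and was not called (0.72 ± 0.23, adjusted p = 0.0568, and 0.0082 to 1.0 over the alternatives). This difference holds both genotype and treatment. In the comparison of genotypes at PTZ45, the markers C1ql2 and Pdyn of dentate granule cells and Wfs1 and Fibcd1 of CA pyramidal cells were also called lower in CBP-ifKO mice, and 0 of the other 32 markers were called. The summed CA pyramidal level was 2499 and 3111 in Control PTZ45 and 1951 to 1983 in CBP-ifKO PTZ45, the summed dentate level 2621 and 2872 against 2253 to 2740. Their part in the AP-1 difference was not tested.

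Across the 6 groups the order of levels differed among the members, although Fosl2 and Jund shared 1 order of group means. Fos stood highest in Control PTZ45, then in CBP-ifKO PTZ45, each without overlap with the next group. Fosb stood highest in Control PTZ45, and CBP-ifKO PTZ45 overlapped the next group, Control Sal. Fosl2, Jun and Junb stood highest in Control PTZ45 and next in Control Sal, without overlap. For Jun, the 3 CBP-ifKO groups came last, below Control PTZ0 without overlap, and CBP-ifKO PTZ45 was the lowest in mean. For Jund all neighbours in the order overlapped.

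Genes with the most similar pattern were ranked by the root mean square difference of log2(normalized count + 1) over the 17 libraries, each gene centred on its Control Sal mean, over 13041 genes whose mean normalized count was 50 or more. This is a description, and the genes share libraries and size factors. Nearest to Fos were Npas4, an activity-dependent transcription factor of neurons (0.60, against a median of 2.47 over all genes), Fosb (0.83), the zinc finger factor Egr2 (0.95) and the predicted gene Gm47075 (0.95). Nearest to Fosb were Npas4 (0.61), Gm47075 (0.73), Egr2 (0.75) and the antiproliferative gene Btg2 (0.81), against a median of 2.15. Nearest to Junb were the orphan nuclear receptors Nr4a2 (0.48) and Nr4a1 (0.50), Arc, which encodes a synaptic plasticity protein (0.50), and the small GTPase gene Arl4d (0.51), against a median of 1.10.

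Fosl2 and Jun, whose rise was smaller than that of Fos, Fosb and Junb, had neighbours at shorter distances. Nearest to Fosl2 were the clock gene Per1 (0.20), Mlip (0.22), Btg1 (0.22) and the adrenergic receptor gene Adrb1 (0.24), against a median of 0.50. Nearest to Jun were the neurofilament gene Nefm (0.21), the regulator of G protein signalling Rgs4 (0.22), Rpl22l1 (0.22) and the transcription factor gene Sox11 (0.22), against a median of 0.50. Of the 15 pairs among 6 members, Fosl2 and Jun were the closest (0.24). Fos and Junb, which both rose after PTZ in controls, differed by 1.83, and Fos and Fosb by 0.83. Jund, whose group means spanned less than 1 log2 unit, was not ranked.

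The other genes of the pathway were taken from 4 lists. Of 18 kinases and factors upstream of Fos and Jun, such as ERK, JNK and RSK kinases, SRF and CREB, 0 were called after PTZ45 over Sal in controls by DESeq2 and 0 by edgeR, with 3 at an unadjusted p under 0.05, beside 1.17% of all genes called and 759 higher and 653 lower at that unadjusted p among all 17367 tested. In CBP-ifKO mice 0 were called by either tool, with 1 at an unadjusted p under 0.05, beside 286 higher and 591 lower among all 19757. The median log2 change of this list was 0.05 in controls, against 0.01 over all genes tested. Between genotypes at PTZ45, Srf, the factor that binds CArG boxes (log2 -0.54 ± 0.17, DESeq2 adjusted p = 0.0455), and the JNK3 gene Mapk10 (-0.26 ± 0.08, adjusted p = 0.0336) were called lower in CBP-ifKO, beside 2.82% of all genes, and lost in 8 and 9 of 12 alternatives. The JNK kinase gene Map2k4 was higher in Control PTZ45 than in CBP-ifKO Sal (log2 0.33 ± 0.10, adjusted p = 0.0223) and was lost in 8 of 12.

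Of 9 genes that limit AP-1 mRNA or protein, 3 were called higher after PTZ45 over Sal in controls and 1 in CBP-ifKO mice, with 0.939% and 0.086% of all genes called higher. The median log2 change of this list was 0.34 and 0.06, against 0.01 and 0.00 over all genes tested. Dusp1, a phosphatase that switches off MAP kinases, was the gene called in both. It was at 65.3 to 106 normalized counts in Control Sal, 617 to 680 in Control PTZ45, 60.2 to 79.1 in CBP-ifKO Sal and 135 to 223 in CBP-ifKO PTZ45. Its log2 change was 2.84 ± 0.17 in controls (DESeq2 adjusted p = 9.15e-57) and 1.45 ± 0.23 in CBP-ifKO mice (9.27e-07), the latter lost with edgeR. The interaction was -1.40 ± 0.29 (adjusted p = 0.000618, lost in 2 of 18 alternatives, edgeR among them). Over PTZ0 it was -1.05 ± 0.26 (adjusted p = 0.0184, lost in 9 of 18). Dusp1 was the 1 gene of the 4 lists called in an interaction. Fbxw7, part of a ubiquitin ligase that targets Jun, rose by 0.34 ± 0.09 (adjusted p = 0.0292, lost in 7 of 12). Zfp36, which promotes decay of AU-rich mRNAs, rose by 2.20 ± 0.39 (adjusted p = 2.70e-06) and is named after its values were seen, as its mean of 26.1 normalized counts was below 50. Its relative Zfp36l1 was called over PTZ0 (0.94 ± 0.26, adjusted p = 0.0237, lost in 6 of 11).

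Of 13 bZIP partners of AP-1, 1 was called higher over Sal in controls, beside the same 0.939% of all genes. This was Atf3 (log2 2.99 ± 0.54, DESeq2 adjusted p = 7.91e-06), a stress-response factor that pairs with Jun, also named after its values were seen, with a mean of 12.5 normalized counts. Atf4 was called over PTZ0 in controls (0.29 ± 0.08, adjusted p = 0.0316) and lower in CBP-ifKO PTZ45 than in Control PTZ45 (-0.36 ± 0.11, adjusted p = 0.0271), each lost in 6 of 12 alternatives. In CBP-ifKO mice 0 of the 13 were called over Sal by DESeq2 or edgeR, and 0 had an unadjusted p under 0.05.

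Of 13 genes described as targets of AP-1 or deltaFosB, 1 was called higher over Sal in controls (0.939% of all genes) and 0 in CBP-ifKO mice by DESeq2 or edgeR (0.086% of all genes by DESeq2), where 1 had an unadjusted p under 0.05. Scg2, which encodes secretogranin II, rose in controls by 0.52 ± 0.09 (adjusted p = 5.78e-07), from 2241 to 2461 normalized counts in Sal to 3235 and 3540 in PTZ45. In CBP-ifKO mice its log2 change was 0.15 ± 0.10, and the interaction was not called (-0.37 ± 0.13, adjusted p = 0.917). At PTZ45, Penk (proenkephalin, log2 -1.58 ± 0.22, adjusted p = 5.19e-10), Pdyn (prodynorphin, -1.02 ± 0.31, adjusted p = 0.0378, lost in 7 of 12 alternatives) and Scg2 (-0.48 ± 0.10, adjusted p = 0.000220) were lower in CBP-ifKO than in control mice. Penk was already lower without a last dose, at 163 to 193 in Control Sal and 68.0 to 89.2 in CBP-ifKO Sal, as was Pdyn, at 87.7 to 96.0 and 29.1 to 53.9. Neither gene was called after the last dose in either genotype. The median log2 change of the list over Sal was -0.01 in controls.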

How the data were processed

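The authors trimmed single-end 50-base reads with Trim Galore 0.6.4, aligned them with STAR 2.6.1 to mouse GRCm38, kept reads above a mapping quality threshold and counted them on Ensembl exons with Rsubread. They deposited raw counts per gene, whole numbers without normalization. Of 18 columns, 1 matched no sample and was not used. Its name has the form of the Control PTZ45 columns, the group with 2 libraries. Positions, GC content and the length of the longest transcript came from GENCODE M21 (same build, 99.6% of identifiers). Exon lengths came with the deposited counts. The deposited counts were tested with DESeq2 1.42.0 in R 4.3.3 (Wald test, two-sided, Benjamini-Hochberg adjustment over all genes with independent filtering, threshold 0.05), each comparison fitted on its own libraries, 14 comparisons in all. Genes without an adjusted p were not counted as called. Normalized counts share 1 set of DESeq2 size factors. The scripts were tested on simulated data. The members, lists and tests were chosen with earlier results of these data known. All members are named, as are list genes called in a PTZ45 comparison or interaction (mean of at least 50 normalized counts, at most 8 a list) and the 4 genes nearest to each member whose group means span at least 1 log2 unit. Alternatives were edgeR 4.0.16 (quasi-likelihood), TMM size factors, a filter of at least 10 counts in 2 libraries, a fit of all 17 libraries, the replicate number as a block, a correction for GC content (loess, span 0.5), the omission of each library and, chosen after seeing the data, of the 5 libraries with over 10 times the median choroid plexus marker sum. No replicate pair agreed within counting noise (chi-square per degree of freedom at least 2.16).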

Additional observations from a re-analysis of the deposited data

Results flagged for a closer look

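The rise after the last PTZ dose differed between genotypes, by the interaction test of DESeq2, for 5 members over both baselines. Over Sal the interaction (CBP-ifKO minus control, log2) was -3.18 for Fos, -4.57 for Fosb, -0.9997 for Fosl2, -1.12 for Jun and -2.28 for Junb. Over PTZ0 it was -2.65 for Fos, -5.08 for Fosb, -0.92 for Fosl2, -1.08 for Jun and -2.46 for Junb. Both sets share the PTZ45 libraries, of which Control PTZ45 has 2. Lane and last dose cannot be told apart in controls in either set, nor in CBP-ifKO mice over Sal.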

How the results depend on the processing

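Of 98 log2 fold changes of members, 40 were called. Over 573 alternative values of these, 543 kept call and direction, 30 lost the call and 0 reversed, and 33 of the 40 were kept in every alternative that gave an adjusted p. Another 15 values gained a call. Where a comparison holds 1 choroid-rich library, its omission is counted under both settings although the fit is the same. The cause of these changes was not tested. The depth limits Fosl1, and Fos and Fosb without a last PTZ dose. With 2 Control PTZ45 libraries, a fit that leaves 1 out assumes that it varies like the other group.

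Of the 7 members, PTZ45 over Sal in CBP-ifKO mice called 2, and 1 with edgeR, without the choroid-rich libraries and without any single library. PTZ45 over PTZ0 in CBP-ifKO mice called 1, and 3 with the GC correction or in a fit of all 17 libraries. The genotypes in Sal mice gave 1 call, 0 with edgeR, 3 in a fit of all 17 libraries, 0 without the choroid-rich libraries and 0 to 2 without single libraries. In PTZ0 mice they gave 2, 0 without the choroid-rich libraries and 0 to 3 without single libraries. Without a last PTZ dose they gave 4, and 2 without the choroid-rich libraries. With the longest transcript as length, the Fos to Jun ratio was 1.59 in Control PTZ45 and 0.674 in CBP-ifKO PTZ45. It was 0.266 in Control Sal, 0.290 in Control PTZ0, 0.310 in CBP-ifKO Sal and 0.300 in CBP-ifKO PTZ0, also higher than with merged exons. The share of the control rise left in CBP-ifKO mice was 2.35% for Junb, 5.43% from PTZ0, 1.09% without the choroid-rich libraries and 1.12% to 3.60% without single libraries. For Fosl2 it was 4.93%, 10.3% without the choroid-rich libraries and -3.38% to 9.17% without single libraries.

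Same-numbered libraries did not deviate together across the groups in general (40 pairs, correlations from -0.523 to 0.532, 15 over 0.1), so the numbers were not taken as pairs. All pairs were over 0.1 for Control PTZ0 with CBP-ifKO PTZ45 (3 pairs), with Control PTZ45 (2 pairs), and for Control PTZ45 with CBP-ifKO PTZ0 (2 pairs). Numbers come from the sample titles. The library titled Control PTZ45 replicate 2 carries the number 3 in its description, and under that number its correlations ran from -0.037 to 0.123. A block with that number was not run. With the replicate number as a block, the members called were 1 for PTZ45 over Sal in CBP-ifKO mice, 0 between genotypes in Sal and 0 in PTZ0 mice, and the counts in the other 11 comparisons were as in the unblocked fit.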
